A study of Homo sapiens with 30 samples.

Results

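The mitochondrial ribosomal protein genes code for the proteins of the ribosome that works inside mitochondria. They were taken as the genes with messenger RNA rows in the deposited table whose symbol begins with MRPL (large subunit) or MRPS (small subunit) and a digit, leaving out read-through names. The rule found 77 genes, 48 MRPL and 29 MRPS, of 22355 genes in the table, 17150 of which had a read. For each gene the transcript with the highest summed value stood in. All 77 genes passed the filter on low reads that left 11395 genes to test. The table names 61 of them and RefSeq the other 16. Members of the ribosome with other names, among them DAP3, PTCD3 and MRPL57 (MRP63 in the table), lie outside the rule.

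The samples were 22Rv1 cells, an established line of castration-resistant prostate cancer, and the study's title concerns modulation of transcription with selective inhibitors of CDK9, the kinase that releases paused RNA polymerase II into elongation. New RNA was marked by SLAM-seq: cells take up 4-thiouridine (s4U), the thiol in the extracted RNA is alkylated, and reads from marked RNA show T-to-C conversions. Libraries read the 3′ ends of transcripts. There were 10 groups of 3 libraries: KB742 at 1.2 µM for 2, 4 and 8 h, KI-ARv-03 at 4 µM for 2, 4 and 8 h, DMSO for 2, 4 and 8 h, and cells at 0 h. All groups, the 0 h cells included, had 800 µM s4U for 30 min beforehand, and the medium of the other groups held s4U to the end. The 0 h cells had no change of medium and no DMSO, so time, DMSO, the new medium and longer labelling cannot be told apart in comparisons with 0 h. The doses of KB742 and KI-ARv-03 differ, so their values are set side by side and not compared. The labels do not say that replicates are separate cultures, and p-values then measure only the spread between libraries, which may be technical. Some labels contradict each other (most samples titled 4 h carry another time in the treatment field, a field gives KB742 another dose, and the protocol text names DMSO for all), and the titles were followed.

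Mitochondrial DNA codes for the RNA of the mitochondrial ribosome and for core subunits of the respiratory chain, while each protein of that ribosome comes from a nuclear gene, is made in the cytosol and is imported. The large subunit forms peptide bonds and holds the exit tunnel, and the small subunit decodes the messenger. Part of the proteins descend from bacterial ribosomal proteins, and others were gained in the mitochondrial lineage. The factors NRF1, NRF2 (an ETS-family factor also called GABP) and YY1 are known to bind promoters of nuclear genes for mitochondrial proteins.

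Promoter sequence was at hand for 69 of the 77 genes, in RefSeq's GRCh38.p14 build, as 300 bases of which 250 lie before the transcription start and 50 from it onward; where a gene had several starts (11 members), the first listed was used. Letters known from binding sites of the 3 factors were searched on both strands: GCGCA, any base (N) and GCGC in a row for NRF1, CCGGAAG for the ETS family and AAGATGGC for YY1. CCGGAAG stood in 29 of the 69 promoters (42%), against 10.7% of all 27305 promoters of this length and 20.3% of the 9315 promoters of genes tested here. AAGATGGC stood in 20 (29%), against 3.03% of all promoters and 5.84% of those of genes tested. The letters for NRF1 stood in 7 (10.1%), against 6.28% of all and 12.8% of those of genes tested. Of 21 matches to AAGATGGC, 15 began at or after the start, where these letters can also hold the ATG of a start codon. A match is a run of letters and not a shown binding site. The stretches from 120 bases before to 30 bases after the start are printed for 8 genes with 1 listed start, as examples, picked with their values known, of members that fell, rose or gained conversions. Capitals mark a match that lies wholly within the printed stretch. In MRPS18B a match to AAGATGGC spans bases 24 to 31 counted from the start, so its last base lies past the end of the stretch and it stays in lower case. MRPL44, MRPL46 and MRPS30 fell with DMSO, MRPL48, MRPL53 and MRPL40 rose under the main scaling, and MRPL27 and MRPS18B gained conversions. They lie at chr2:223957343-223957492 (plus strand), chr15:88467359-88467508 (minus), chr5:44808827-44808976 (plus), chr11:73787754-73787903 (plus), chr2:74472651-74472800 (minus), chr22:19432425-19432574 (plus), chr17:50373155-50373304 (minus) and chr6:30617720-30617869 (plus).
MRPL44: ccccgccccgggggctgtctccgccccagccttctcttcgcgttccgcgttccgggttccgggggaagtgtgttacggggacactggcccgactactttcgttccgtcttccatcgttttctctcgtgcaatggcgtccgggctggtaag
MRPL46: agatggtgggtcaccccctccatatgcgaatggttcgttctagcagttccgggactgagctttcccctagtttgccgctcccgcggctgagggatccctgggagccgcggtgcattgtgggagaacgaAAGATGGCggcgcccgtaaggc
MRPS30: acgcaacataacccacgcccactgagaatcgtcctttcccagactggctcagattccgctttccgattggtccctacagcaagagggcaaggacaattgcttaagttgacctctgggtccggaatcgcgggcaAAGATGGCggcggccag
MRPL48: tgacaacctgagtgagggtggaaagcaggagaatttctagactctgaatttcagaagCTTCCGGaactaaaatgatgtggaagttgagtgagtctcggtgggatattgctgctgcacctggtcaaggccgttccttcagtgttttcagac
MRPL53: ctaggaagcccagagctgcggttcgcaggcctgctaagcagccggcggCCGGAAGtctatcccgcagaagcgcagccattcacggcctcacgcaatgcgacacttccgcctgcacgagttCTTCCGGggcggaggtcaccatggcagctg
MRPL40: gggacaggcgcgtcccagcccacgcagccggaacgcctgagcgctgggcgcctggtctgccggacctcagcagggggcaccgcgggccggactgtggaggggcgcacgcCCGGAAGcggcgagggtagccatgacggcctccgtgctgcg
MRPL27: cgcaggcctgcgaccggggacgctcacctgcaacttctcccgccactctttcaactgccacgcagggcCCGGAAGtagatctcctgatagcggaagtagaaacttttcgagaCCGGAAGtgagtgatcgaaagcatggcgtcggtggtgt
MRPS18B: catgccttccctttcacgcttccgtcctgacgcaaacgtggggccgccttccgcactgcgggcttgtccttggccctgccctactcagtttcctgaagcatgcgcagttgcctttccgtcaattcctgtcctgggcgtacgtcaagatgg

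All 3 promoters of the rising genes held CCGGAAG on one strand or the other, and those of MRPL46 and MRPS30 held AAGATGGC just after the start. Over all members with a promoter, CCGGAAG stood in 12 of the 21 that rose with DMSO at 8 h and in 1 of the 7 that fell, and AAGATGGC in 6 of the 21 and in 4 of the 7. These counts are a description of few genes, and the groups depend on the scaling described further on.

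The libraries held 3376884 to 9265131 reads, 1409598 to 3959155 of them on the genes kept and 11635 to 40790 on the 77 members. Levels are in CPM, a read count scaled to a common library total and rescaled with TMM factors, and are relative to the other RNA of a library, so that a rise or fall is not a change in RNA per cell, and fewer cells and less RNA per cell cannot be told apart. Because reads come from 3′ ends, a transcript's length does not enter its count. A gene was called at an adjusted p under 0.05 (limma, Benjamini-Hochberg over all genes tested). A ± after a log2 difference is its standard error in the limma fit. A ± after a level or a conversion is the SD between the libraries of a group. Of 10 luminal prostate markers all had reads in each library, at a summed 356 to 957 CPM. Of 10 markers of immune, endothelial, stromal and basal cells, COL1A2, VWF and PTPRC had no read in any library, and the list summed to 0.264 to 8.96 CPM. Most of that sum was COL1A1, at 0.264 to 7.71 CPM, the only one of the list with enough reads to test, and it rose with DMSO at 8 h (log2 difference 1.95), and its part in the results was not tested. Of the 30 libraries, 3 stood apart: 0 h replicate 3 and KB742 2 h replicate 2 correlated below 0.9 with both other libraries of their group, and KI-ARv-03 4 h replicate 1 had a read-weighted conversion of 1.17%, against 0.374% and 0.416% in replicates 2 and 3.

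The members were well expressed, with a median of 94.4 CPM over all libraries, against 21.2 CPM for the median gene tested. Means spanned 109-fold, 37 members were above 100 CPM and 4 below 20 CPM. MRPL51, a protein of the large subunit found in mitochondria and not in bacteria, was the highest, at 622 CPM on average and 331 to 1149.7 CPM over the libraries. MRPS35, MRPS24, MRPS33, MRPS21 and MRPL24 followed, at 412, 409, 349.5, 302 and 299 CPM. MRPS35 and MRPS33 belong to the small subunit and lack bacterial counterparts, MRPS24 corresponds to bacterial S3, MRPS21 to S21 and MRPL24 to L24. The library ranges of these 6 overlapped. At the low end stood MRPS30 with 15.7 CPM, MRPL50 with 12.7, MRPS31 with 6.76 and MRPL2 with 5.69 CPM. MRPL2 corresponds to the bacterial protein L2 next to the peptidyl transferase centre, and its 0.414 to 12.9 CPM rest on few reads.

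With DMSO, 8 members became scarcer relative to other RNA over the 8 h, where 29.2% of all genes tested fell. Other members became a larger part of the library under the main scaling, where 20.1% of all genes tested rose. MRPL44, a large-subunit protein that resembles an RNase III enzyme, was at 5.61, 5.82 and 4.63 CPM with DMSO at 8 h, against 39.7, 48.4 and 36.9 CPM at 0 h (log2 difference -2.74 ± 0.28, adjusted p = 3.9e-08). Its libraries did not overlap, and at 4 h it was already down (15.7, 16.8 and 18.6 CPM; log2 difference -1.24 ± 0.28, adjusted p = 0.00235). MRPL46, also of the large subunit, was at 16.8, 11.3 and 10.2 CPM with DMSO at 8 h, against 58, 54.1 and 58.2 CPM at 0 h (log2 difference -2.10 ± 0.31, adjusted p = 6.83e-06), and at 4 h its log2 difference was -1.69 (adjusted p = 3.74e-04). All DMSO libraries at 4 and 8 h lay below all 0 h libraries. MRPS30, which carries a small-subunit name but sits in the large subunit, was at 3.74, 6.98 and 0 CPM with DMSO at 8 h, against 45.8, 59 and 25.5 CPM at 0 h (log2 difference -3.65 ± 0.58, adjusted p = 1.67e-05). The groups were apart here too, and DMSO replicate 3 had no read for it. MRPL15, MRPS31, MRPL50, MRPL36 and MRPS17 fell as well, with log2 differences of -1.39, -2.69, -2.19, -1.20 and -0.76 (adjusted p = 3.72e-04, 4.79e-04, 0.00463, 0.0162 and 0.0323). MRPL15, MRPL36 and MRPS17 correspond to bacterial L15, L36 and S17. The call of MRPL50 was lost without DMSO 8 h replicate 3 (adjusted p = 0.0752; over its 15 alternatives 4.55e-04 to 0.0752).

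The clearest rises at 8 h were of MRPL48, MRPL53 and MRPL40, large-subunit proteins without a bacterial counterpart. MRPL48 was at 256, 267 and 258 CPM with DMSO at 8 h, against 95.9, 89 and 66.5 CPM at 0 h (log2 difference 1.64 ± 0.24, adjusted p = 6.14e-06). MRPL53 was at 318, 376 and 272 CPM with DMSO at 8 h, against 146, 124 and 111 CPM at 0 h (log2 difference 1.33 ± 0.20, adjusted p = 8.98e-06). MRPL40 was at 199, 281 and 221 CPM with DMSO at 8 h, against 85.5, 86.5 and 53 CPM at 0 h (log2 difference 1.65 ± 0.25, adjusted p = 1.04e-05). In each of the 3, the DMSO libraries at 8 h lay above all 0 h libraries in rescaled CPM. The TMM factors were 1.21 to 1.31 at 0 h and 0.684 to 0.767 with DMSO at 8 h. Before rescaling the groups overlapped for MRPL53. Its share of reads was lower in DMSO 8 h replicate 3 (294 of 4333031) than in 0 h replicate 1 (478 of 6521316). MRPS15, which binds the ribosomal RNA early in small-subunit assembly in bacteria, rose by 1.45, MRPL52 by 1.47 and MRPL11, at the base of the stalk that recruits translation factors, by 1.67 on the log2 scale (adjusted p = 1.22e-05, 5.4e-05 and 6.03e-05). MRPL11 had 600.1, 758 and 299 CPM with DMSO at 8 h, with replicate 3 well below the others, against 194, 177 and 121 CPM at 0 h. With CPM as deposited MRPL48, MRPL40 and MRPS15 kept their calls, and MRPL53, MRPL52 and MRPL11 did not. At 4 h the rising members of smallest adjusted p were MRPL48, MRPL53, MRPS15, MRPL21, MRPL22 and MRPL51, with log2 differences of 1.01, 0.73, 0.73, 0.73, 0.72 and 0.80 (adjusted p = 0.00384, 0.0115, 0.0226, 0.032, 0.0331 and 0.0409). None of these 6 was called at 4 h with CPM as deposited.

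**Figure D1:**
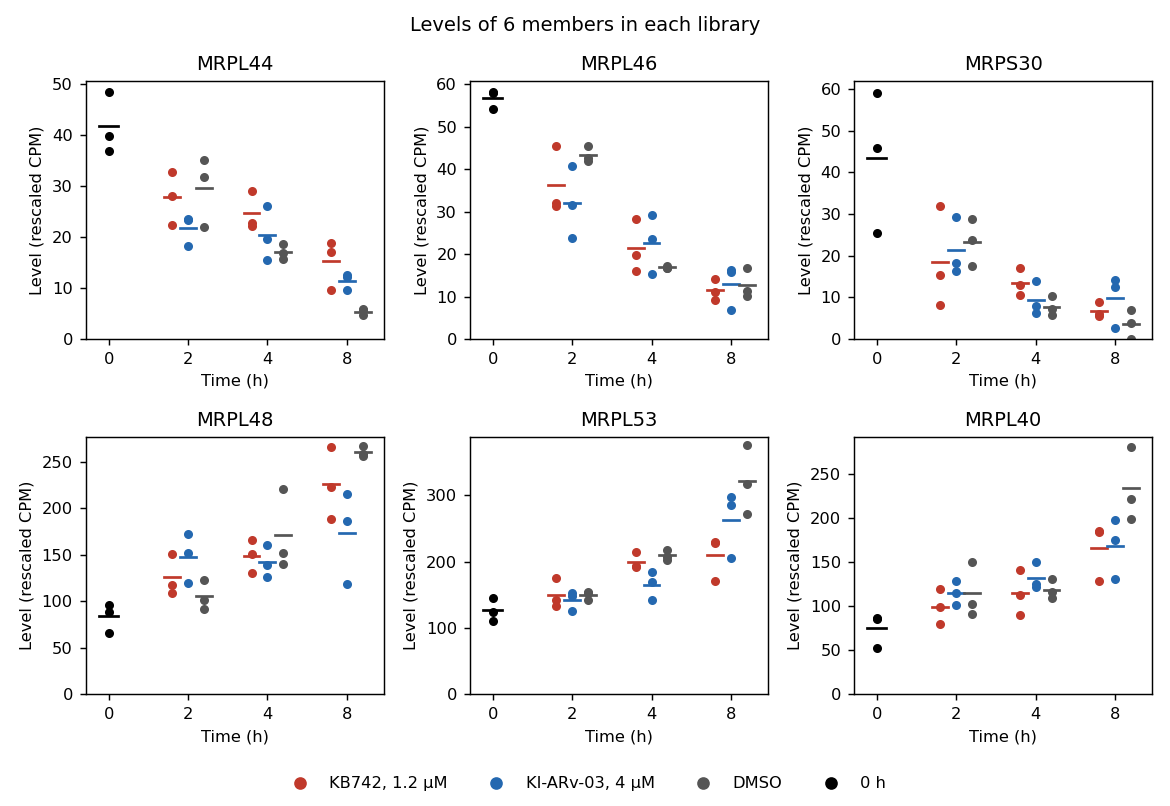
Levels in rescaled CPM of 6 members in each of the 30 libraries, by time in hours; points are libraries and bars are group means (n = 3). MRPL44, MRPL46 and MRPS30 are lower at each later time with DMSO, and MRPL48, MRPL53 and MRPL40 are highest with DMSO at 8 h under the main scaling. MRPL44 with KB742 at 8 h lies above DMSO at 8 h.

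Over the whole set, 22 of 77 members rose and 8 fell at 8 h with DMSO, where 20.1% of all genes tested rose and 29.2% fell. At 4 h 7 rose and 3 fell, where 5.72% of all genes rose and 14.6% fell. At 2 h limma called none, where 0.0878% of all genes rose and 2.67% fell, and edgeR called none either. At an unadjusted p under 0.05, 2 members were above 0 h and none below, against 13.5% of all genes in either direction. The smallest p-values at 2 h were those of MRPL40 (log2 difference 0.61 ± 0.25, adjusted p = 0.264) and MRPS15 (log2 difference 0.50 ± 0.23, adjusted p = 0.312). The median log2 difference of the members was 0.19, 0.34 and 0.32 at 2, 4 and 8 h, against -0.02, 0.01 and -0.15 for all genes tested. The direction of the set depended on the scaling. With CPM as deposited, 4 members rose and 21 fell at 8 h, with a median of -0.41 against -0.73 for all genes. Of the 11395 genes tested, 432 rose and 4906 fell there. At 4 h no member rose and 4 fell under it, with medians of -0.10 and -0.37, while 66 of all genes tested rose and 2740 fell. Under that scaling all 8 members that fell at 8 h remained called and 4 of the 22 that rose did, MRPL40, MRPL48, MRPL51 and MRPS15. With RLE factors the splits were 20 to 10 at the later time and 3 to 4 at the earlier, against 2113 to 3477 and 478 to 1850 over all genes tested. With a trend on GC content removed the members' splits were 32 to 8 and 20 to 3, against 3324 to 2616 and 1881 to 1490 over the 10929 genes with a GC value. The members' medians were then 0.55 at 8 h and 0.50 at 4 h against 0.17 for all genes at both times. The members' median stayed above that of all genes under each of these scalings. The 10 calls at 4 h became 4 without 0 h replicate 3, 6 without 0 h replicate 1, 6 without DMSO 4 h replicate 2 and 5 without DMSO 4 h replicate 3.

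**Figure D2:**
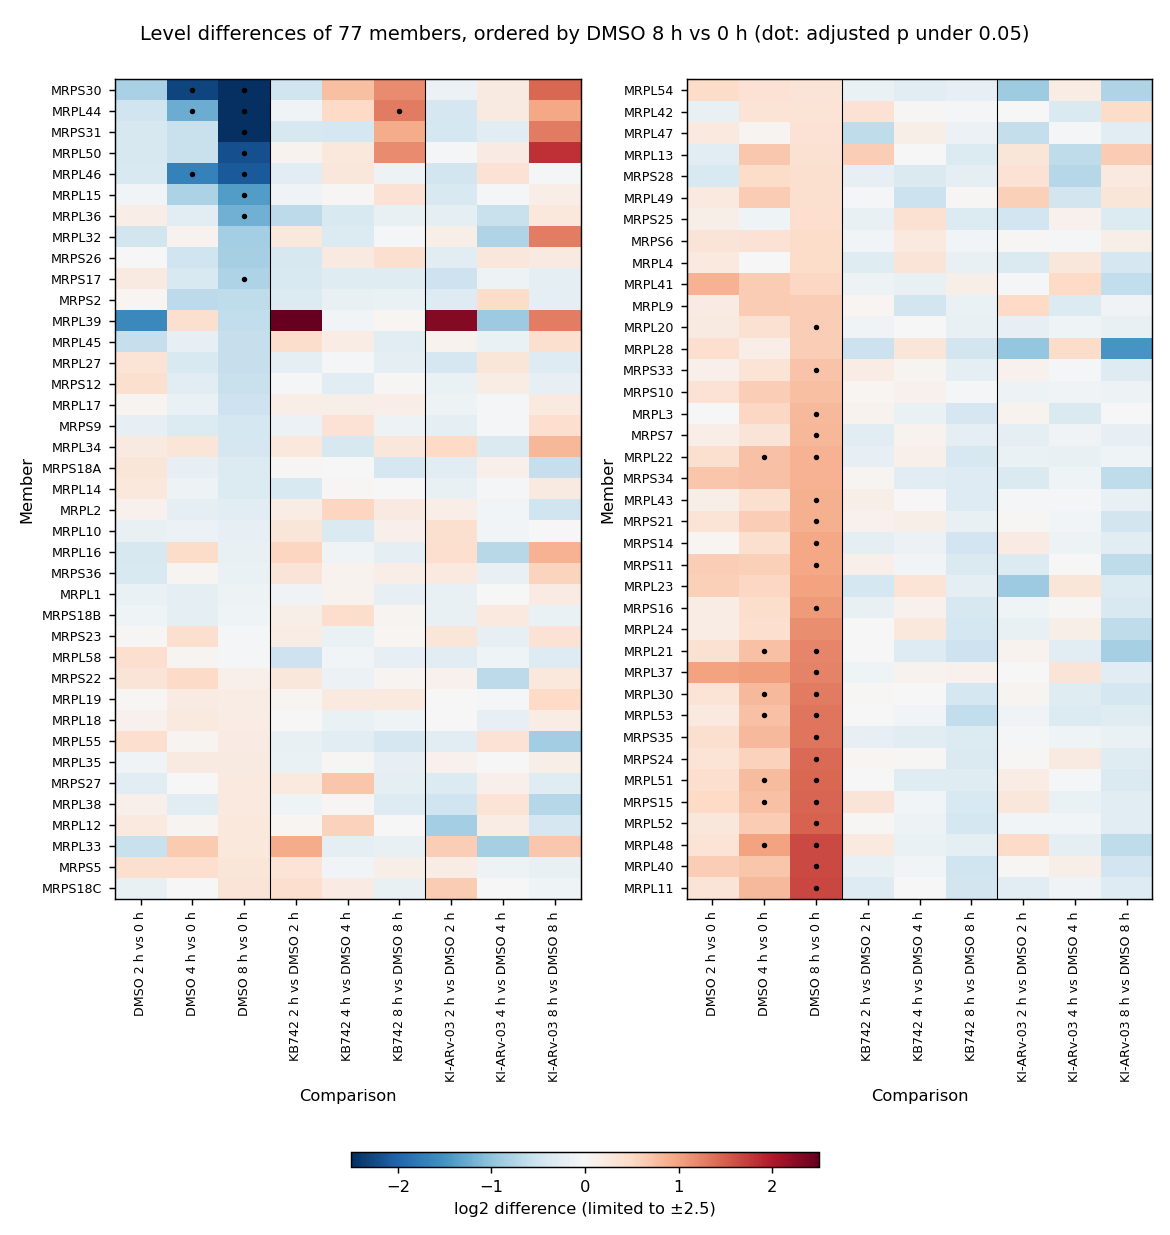
Log2 differences in level (colour, limited to ±2.5) of the 77 members in 9 comparisons, ordered by DMSO at 8 h minus 0 h; a dot marks an adjusted p under 0.05. Of the dots, 40 lie in the DMSO columns at 4 and 8 h, and 1, MRPL44, lies in a column of a compound against DMSO.

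At 8 h with DMSO 20.1% of all genes tested rose and 29.2% fell. By descent and subunit, 6 of 29 large-subunit members with bacterial counterparts rose and 2 fell there, and 7 of 21 large-subunit members without one rose and 4 fell. In the small subunit, 7 of 15 with bacterial counterparts rose and 1 fell, and 2 of 11 without one rose and 1 fell. MRPS18A and MRPS18B, paralogues of the bacterial-type MRPS18C, and MRPS30 are placed here among those without a counterpart, and MRPS36 in no class. With CPM as deposited these counts were 0 and 8, 3 and 6, 1 and 4, and 0 and 2, where 432 of the 11395 genes tested rose and 4906 fell. Of the proteins of known special roles, MRPL3, next to the peptidyl transferase centre, rose by 0.80 (adjusted p = 0.0119) and MRPS16, a small-subunit protein, by 1.06 (adjusted p = 0.0032) on the log2 scale. Neither was called with CPM as deposited. MRPL12 is a stalk protein also reported to bind the mitochondrial RNA polymerase. It was at 113 ± 45 CPM with DMSO at 8 h and 99.8 ± 61.1 CPM at 0 h (SD, n = 3 each). Its log2 difference was 0.25 with a standard error of 0.58 (adjusted p = 0.734). MRPL58, a peptidyl-tRNA hydrolase built into the large subunit, had a log2 difference of -0.02, MRPL45, at the tunnel exit, of -0.58, and MRPL10, which anchors the stalk, of -0.21 (adjusted p = 0.962, 0.268 and 0.521). MRPS12, at the decoding centre, had -0.56, MRPS22 0.12 and MRPS34 0.87 (adjusted p = 0.258, 0.804 and 0.143). The homologues of bacterial S18 are MRPS18C and MRPS18B in the small subunit and MRPS18A in the large subunit. Their log2 differences were 0.32, -0.12 and -0.35 (adjusted p = 0.497, 0.826 and 0.405). MRPL41 had 0.51 and MRPS36, since renamed KGD4 as part of the oxoglutarate dehydrogenase complex, -0.17 (adjusted p = 0.634 and 0.676).

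Beside DMSO at the same time, 1 member was called in level, MRPL44 with KB742 at 8 h, and none with KI-ARv-03. With KB742 at 8 h, MRPL44 was at 18.9, 9.56 and 17.1 CPM, against 5.61, 5.82 and 4.63 CPM with DMSO (log2 difference 1.30 ± 0.28, adjusted p = 0.0129). The KB742 libraries, with 47, 19 and 23 reads, all lay above the DMSO libraries, with only 9, 15 and 5 reads, and still below those at 0 h. With KI-ARv-03 at 8 h it was at 12.6, 12.2 and 9.52 CPM, also above each DMSO library, which missed the threshold (log2 difference 0.96 ± 0.28, adjusted p = 0.057). At 8 h 1 of 77 members was called higher with KB742 and none lower (1.25% and 0.527% of all genes). With KI-ARv-03 limma called none (1.94% of all genes higher and 0.921% lower), and edgeR called none. At an unadjusted p under 0.05, 5 members were higher and 2 lower, against 17.1% of all genes in either direction. The KB742 call was lost without DMSO 8 h replicate 3, without KB742 8 h replicate 1 or 3 and with the 2 groups fitted alone (adjusted p 0.00455 to 0.355 over 15 alternatives), while the log2 difference stayed between 1.13 and 1.59. The effect of a compound on MRPL44 at 8 h minus that at 2 h was 1.38 ± 0.39 with KB742 and 1.37 ± 0.39 with KI-ARv-03 on the log2 scale (adjusted p = 0.504 and 0.383). None of the 77 members was called in either interaction by limma (0.00878% of all genes in each) or by edgeR. In these interactions 3 and 5 members had an unadjusted p under 0.05, against 6.06% and 6.66% of all genes. Second by p in them were MRPS15 with KB742 (-0.71) and MRPL48 with KI-ARv-03 (-1.11; adjusted p = 0.772 and 0.444). The next smallest p with KI-ARv-03 at 8 h was that of MRPL21, which corresponds to bacterial L21. It was at 199, 195 and 107 CPM, against 267, 330.1 and 268 CPM with DMSO (log2 difference -0.83 ± 0.24, adjusted p = 0.0574). Leaving out KI-ARv-03 8 h replicate 2 gave 2 calls, MRPL21 among them, and leaving out DMSO 8 h replicate 2 gave 1.

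At 2 and 4 h no member was called with either compound by limma or by edgeR. Of all genes, limma called 0.0263% lower and 0% higher at 2 h with each compound, 0.079% lower and 0.0351% higher at 4 h with KB742, and 0.0439% lower and 0.0176% higher at 4 h with KI-ARv-03. Of the 77, 1 had an unadjusted p under 0.05 with KB742 at 2 h (3.09% of all genes), another 1 with KI-ARv-03 at 2 h (2.97% of all genes), and none at 4 h (4.8% and 3.95% of all genes). In both it was MRPL39, a large-subunit protein, at 51, 25 and 90.4 CPM with KB742, at 19.7, 53.3 and 62 CPM for KI-ARv-03 and at 13.9, 12 and 2.14 CPM for DMSO (log2 differences 2.56 and 2.29, adjusted p = 0.999 and 0.999). Its libraries also differ widely within groups. The members of smallest p were otherwise MRPL47 with KB742 (-0.64) and MRPL48 with KI-ARv-03 (0.48) at 2 h, MRPL44 (0.50) and MRPL9 (-0.46) with KB742 and MRPS22 (-0.66) and MRPL53 (-0.35) with KI-ARv-03 at 4 h, on the log2 scale (adjusted p = 0.999, 0.999, 0.996, 0.996, 1.0 and 1.0). The median log2 difference of the 77 members at 2, 4 and 8 h was -0.01, 0.00 and -0.19 with KB742, where all genes had 0.01, -0.02 and -0.02. For KI-ARv-03 it was -0.07, -0.05 and -0.19, where all genes had 0.04, 0.00 and 0.00. At 8 h 55 members were lower and 22 higher with KB742 than with DMSO, and 48 were lower and 29 higher with KI-ARv-03. With CPM as deposited the members' medians at 8 h were 0.15 with each compound, against 0.26 and 0.25 for all genes. With the trend on GC content removed from each library they were -0.18 with KB742, against -0.05 for all genes, and -0.07 with KI-ARv-03, against -0.04 for all genes.

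Libraries of the same group differed along a common line, and base composition ran along it. After group means were removed, the first principal component of the 77 members held 53.7% of their variance and the second component 17.3%. The loading of a member on the first correlated with the GC content of the last 300 bases of its transcript (across genes, Pearson's r = 0.82, Spearman's rho = 0.82, n = 77; the points share the same 30 libraries). With the GC content of the whole transcript r was 0.77, and with log2 length -0.17. GC of the last 300 bases spanned 23.3% to 70.3%, with a median of 43% over members and 41% over genes tested. MRPL28, a large-subunit protein with 66.7% GC there, was at 10.5, 52.3 and 92.2 CPM in the KB742 libraries at 8 h. MRPL39, with 37% GC, was at 55.1, 52.9 and 0.744 CPM in the same libraries. MRPL28 was lowest in the library where MRPL39 was highest, and highest where MRPL39 was lowest. MRPL54, MRPL28, MRPL41 and MRPL55 had the highest loadings and MRPL39, MRPS28, MRPL33 and MRPL32 the lowest. Within single libraries the correlation of the members' deviations with GC ran from -0.787 to 0.749, and its size was above 0.5 in 15 of the 30. The median SD within groups was 0.441 for members and 0.519 for all genes on the log2 scale. The log2 difference of DMSO at 8 h minus 0 h correlated with GC at r = 0.346 over the members. The part of base composition in the level results was not tested beyond the fit with the GC trend removed, given above.

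**Figure D3:**
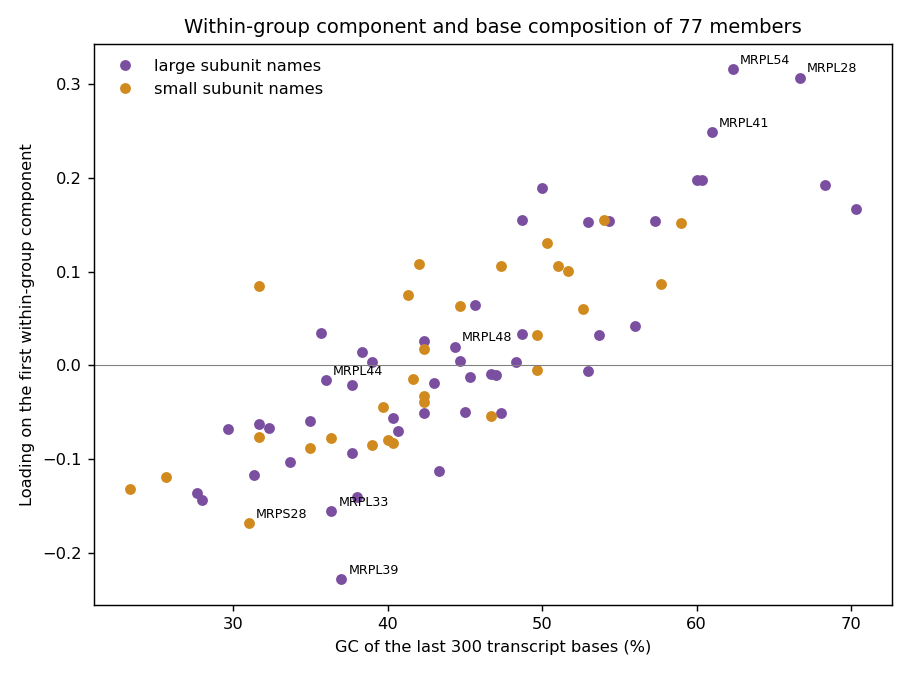
Loading of each of the 77 members on the first component of the spread within groups (log2 level minus its group mean), against the GC content in percent of the last 300 bases of its transcript; colours mark MRPL and MRPS names. Loadings climb with GC content (r = 0.82), from MRPL39 and MRPS28 at the bottom to MRPL54 and MRPL28 at the top.

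More members were called in conversion than in level at 4 and 8 h. On simulated data the unweighted conversion test used here made more false calls than its threshold allows. The simulation treated each read as converted or not, while the deposited value is a fraction of T, so the excess here may differ in size. Calls of this test are taken as less secure than their adjusted p. Conversion is the deposited T-to-C value of a transcript, given in percent, and it grows as marked RNA replaces older RNA. Over the 62 members with at least 20 reads in each library, the median conversion of a library averaged 0.177% ± 0.0663 (SD, n = 3) at 0 h, 0.533% ± 0.156 with DMSO at 2 h, 0.953% ± 0.198 at 4 h and 1.13% ± 0.237 at 8 h. Over the 4668 genes that met the same minimum of reads it was 0.152% ± 0.0945, 0.361% ± 0.0651, 0.574% ± 0.0622 and 0.678% ± 0.182, with depth not matched between the sets. Each DMSO library was above each 0 h library in both. Against 0 h, conversion rose in 7 of 75 members tested at 2 h, in 44 of 74 at 4 h and in 52 of 72 at 8 h, and it fell in none. Of all genes tested, 7.5%, 34.1% and 42.5% rose and 0.0241%, 0.0385% and 0.031% fell. With values weighted by reads, 8, 47 and 56 members rose at 2, 4 and 8 h and none fell. MRPL2 and MRPS31 had too few reads to be tested at any time, MRPS30 at 4 and 8 h, and MRPL44 and MRPL50 at 8 h. The 7 calls at 2 h became 1 without 0 h replicate 3, 3 without 0 h replicate 2, 4 without 0 h replicate 1 and 2 without DMSO 2 h replicate 2 or 3, and the 44 at 4 h became 27 without 0 h replicate 3 and 26 without DMSO 4 h replicate 3.

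MRPL27, MRPL15 and MRPS2 had the highest conversion with DMSO at 8 h. MRPL27 corresponds to bacterial L27, whose tail reaches the peptidyl transferase centre. Its conversion was 10.5%, 11.7% and 13.6% with DMSO at 8 h, against 0.55%, 0.181% and 0.153% at 0 h (11.6 percentage points, adjusted p = 4.08e-11), and 5.07% ± 1.43 at 4 h and 1.96% ± 0.588 at 2 h (SD, n = 3 each). MRPL15 was at 10.2%, 11.5% and 23.8% with DMSO at 8 h, against 0.282%, 0.254% and 0.823% at 0 h (14.7 percentage points, adjusted p = 1.26e-08). MRPS2, which corresponds to bacterial S2, was at 12.3%, 28.1% and 17% with DMSO at 8 h, against 0.787%, 0.617% and 0.235% at 0 h (18.6 percentage points, adjusted p = 3.08e-08). In all 3 genes every DMSO library lay far above every 0 h library. MRPL34, homologue of bacterial L34, reached 4.41% ± 0.181 at 8 h (adjusted p = 1.19e-06), MRPL15 6.83% ± 1.38, MRPL55 4.81% ± 3.12 and MRPS24 1.33% ± 0.11 at 4 h (adjusted p = 6.7e-05, 5.82e-05 and 6.74e-06). At 2 h MRPL53 was at 2.27% ± 1.15, MRPL36 at 3.91% ± 1.65 and MRPL42 at 0.413% ± 0.162 (adjusted p = 0.0117, 0.0206 and 0.0263). MRPL46, whose level fell, reached 8.16% ± 4.75 in the libraries with enough reads, against 1.4% ± 1.43 at 0 h (adjusted p = 0.00249). The most abundant member, MRPL51, stood low at 0.211%, 0.523% and 0.749% with DMSO at 8 h, against 0.107%, 0.152% and 0.0050% at 0 h (adjusted p = 0.00249). MRPL48, whose level rose, was at 0.121%, 0.215% and 0.066% with DMSO at 8 h, against 0.029%, 0.021% and 0.754% at 0 h, with overlapping libraries (adjusted p = 0.873). By class, conversion rose at 8 h in 21 of 28 large-subunit members with bacterial counterparts, by a median of 1.82 percentage points over those tested, and in 12 of 18 without one, with a median of 1.16 points. In the small subunit it rose in 11 of 15 with counterparts (median 0.824 points) and in 7 of 10 without (median 1.57 points). Of all genes tested, conversion rose in 42.5%, and differences between the classes were not tested.

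At 8 h the median conversion was lower with both compounds than with DMSO, over the members as over all genes. At 2, 4 and 8 h the median over the 62 members was 0.268% ± 0.125, 0.336% ± 0.0317 and 0.339% ± 0.0365 for KB742. It was 0.272% ± 0.0463, 0.739% ± 0.682 and 0.276% ± 0.0261 for KI-ARv-03. Over all 4668 genes the medians were 0.188% ± 0.0901, 0.216% ± 0.0484 and 0.184% ± 0.0247 for KB742, then 0.209% ± 0.0298, 0.579% ± 0.645 and 0.174% ± 0.0441 for KI-ARv-03. The KI-ARv-03 libraries at 4 h were at 1.52% in replicate 1, 0.384% in replicate 2 and 0.307% in replicate 3, and replicate 1 alone lay above the DMSO libraries at 4 h. At 8 h all 3 libraries of each compound lay below all 3 DMSO libraries, which were at 0.857%, 1.27% and 1.26%. Against DMSO at the same time, KB742 lowered conversion in none of 75 members tested at 2 h (0.459% of all genes), in 12 of 74 at 4 h (16.3%) and in 32 of 71 at 8 h (33.9%). For KI-ARv-03 the counts were none of 75 (0.356% of all genes), 8 of 74 (6.56%) and 36 of 72 (36.5%). It rose in no member by limma with either compound, where 0%, 0.0132% and 0% of all genes rose with KB742 and 0%, 0.0526% and 0.0159% with KI-ARv-03, and no member was higher at an unadjusted p under 0.05 at 2 h. At 2 h 18 members with KB742 and 6 with KI-ARv-03 were lower at an unadjusted p under 0.05. Of all genes, 14.2% and 13.0% were under it in either direction. Weighting values by reads called no member with either compound at 2 h. The smallest p at 2 h were those of MRPS36 with KB742 (0.0547% ± 0.051 with KB742 and 0.615% ± 0.289 with DMSO, adjusted p = 0.119) and of MRPS7, a homologue of bacterial S7, with KI-ARv-03 (0.0697% ± 0.0124 with KI-ARv-03 and 0.587% ± 0.219 with DMSO, adjusted p = 0.18). The 8 calls with KI-ARv-03 at 4 h became 22 without its replicate 1, 3 without its replicate 2, its replicate 3 or DMSO 4 h replicate 1, and 4 without DMSO 4 h replicate 3. The 12 calls with KB742 at 4 h became 7 without its replicate 1, and the 32 at 8 h became 21 without DMSO 8 h replicate 2.

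A fall in percentage points cannot exceed the DMSO value, so the members with the highest conversion with DMSO had the most room to fall, and the comparisons share the DMSO libraries. At 8 h MRPL27 was at 1.67%, 0.654% and 0.50% with KB742, at 2.72%, 1.07% and 2.4% for KI-ARv-03 and at 10.5%, 11.7% and 13.6% for DMSO (-11 percentage points, adjusted p = 3.96e-09 with KB742; -9.85 percentage points, adjusted p = 1.05e-07 with KI-ARv-03). MRPL15 was at 1.36%, 0.593% and 3.49% with KB742, at 1.74%, 1.26% and 1.39% for KI-ARv-03 and at 10.2%, 11.5% and 23.8% for DMSO (-13.3 percentage points, adjusted p = 1.57e-06 and -13.7 percentage points, adjusted p = 8.26e-07). No library of a compound reached a DMSO library in either gene. MRPS2 was at 10.7%, 2.31% and 1.6% with KB742, at 6.52%, 2.85% and 4.61% for KI-ARv-03 and at 12.3%, 28.1% and 17% for DMSO (-14.3 percentage points, adjusted p = 5.79e-05 and -14.5 percentage points, adjusted p = 8.21e-05), and KB742 replicate 1 came near the lowest DMSO library. MRPS26 fell to 0.433% ± 0.33 with KI-ARv-03 at 8 h, against 2.88% ± 0.241 with DMSO, and MRPL3 to 0.306% ± 0.133, against 2.69% ± 1.52 (SD, n = 3 each; adjusted p = 5.66e-05 and 7.29e-05). MRPS18B fell to 0.618% ± 0.227 with KB742 at 8 h, against 2.99% ± 1.13 with DMSO (adjusted p = 9.24e-05). At 4 h the smallest adjusted p-values with KB742 were those of MRPL55 (0.20% ± 0.206 with KB742 and 4.81% ± 3.12 with DMSO, adjusted p = 3.47e-04), MRPL27 (0.00135), MRPL30 (0.00175) and MRPS26 (0.00323). With KI-ARv-03 at 4 h they were those of MRPS24 (0.389% ± 0.22 with KI-ARv-03 and 1.33% ± 0.11 with DMSO, adjusted p = 0.00117), MRPL27 (0.00263), MRPL15 (0.00636) and MRPL55 (0.0257). MRPS34 was not called at 8 h with either, at 4.13% ± 2.27 with KB742, 5.19% ± 2.64 for KI-ARv-03 and 7.33% ± 2.82 for DMSO (adjusted p = 0.107 and 0.286). MRPL12 had 0.771% ± 0.487 with KB742, 0.0883% ± 0.0119 for KI-ARv-03 and 0.651% ± 0.231 for DMSO at 8 h, and was called lower for KI-ARv-03 (adjusted p = 0.893 and 0.0429). With KB742 at 8 h MRPL46 also had too few reads to be tested.

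**Figure D4:**
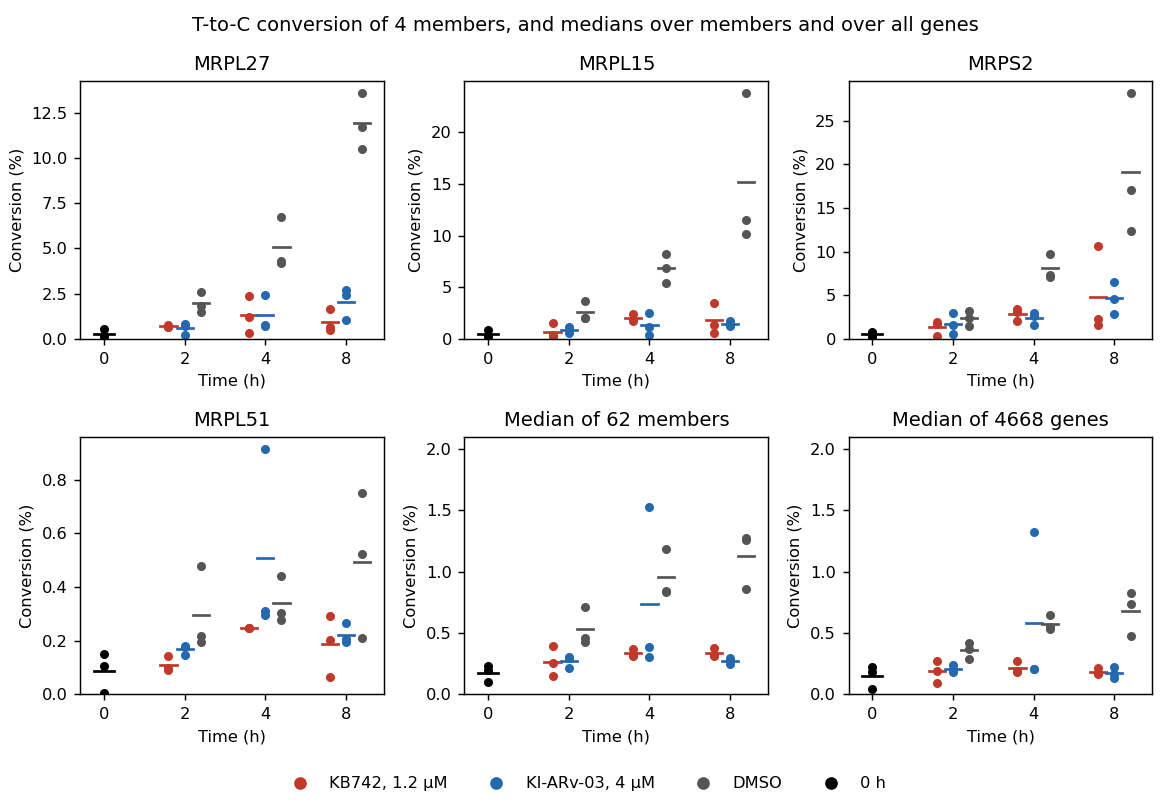
T-to-C conversion in percent of MRPL27, MRPL15, MRPS2 and MRPL51 in each library, and the median of a library over 62 members and over 4668 genes, by time in hours; points are libraries with at least 20 reads and bars are group means. With DMSO the values are higher at each later time in MRPL27, MRPL15 and MRPS2, the compounds at 8 h lie below DMSO there, and 1 KI-ARv-03 library at 4 h lies far above the other 2 in both medians.

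Of members with conversion at 4 h with DMSO, the 6 whose level fell at 8 h were at a median of 4.59% (1.56% to 6.83%), the 22 that rose at 0.853% (0.285% to 3.53%) and the 46 not called at 1.06% (0.169% to 8.07%). Across members, the log2 level difference of DMSO at 8 h minus 0 h correlated with conversion under DMSO at r = -0.41 (rho = -0.37, n = 75) at 2 h, -0.48 (rho = -0.35, n = 74) at 4 h and -0.50 (rho = -0.43, n = 72) at 8 h. Genes are not independent replicates, and at 8 h both measures come from the same DMSO libraries. MRPL44, with the largest fall among the members that could be plotted, had the lowest conversion of the 6, while MRPL15, MRPL46, MRPL36, MRPL50 and MRPS17 were at 6.83%, 4.82%, 4.7%, 4.48% and 4.26%. The calls of rising members depend on the scaling as given above.

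**Figure D5:**
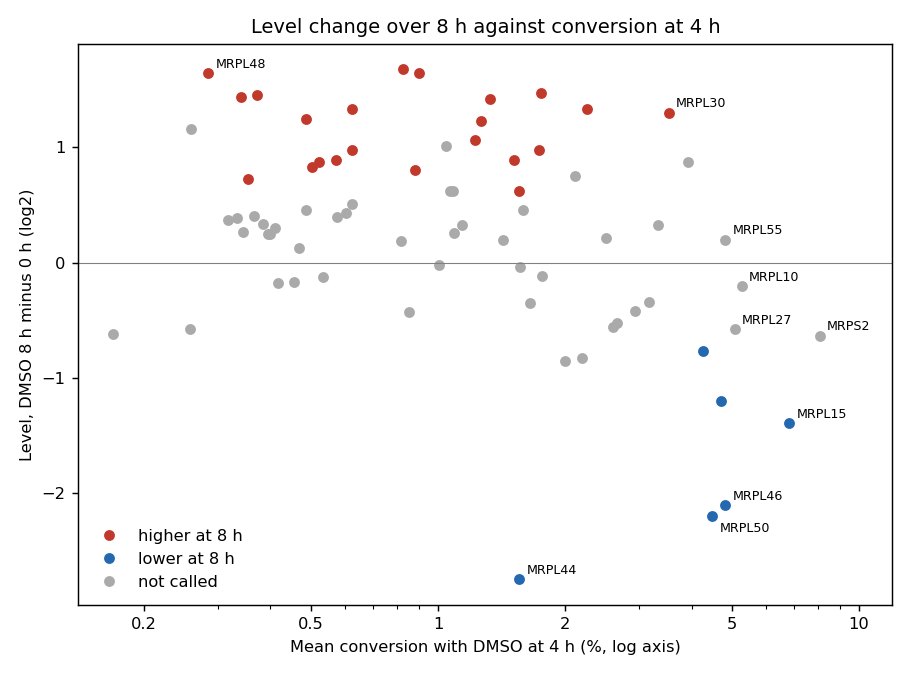
Log2 level difference of DMSO at 8 h minus 0 h for the 74 members with conversion at 4 h, against their mean conversion with DMSO at 4 h in percent on a log axis; colours mark the call of the level at 8 h under the main scaling. The members that fell lie at the right apart from MRPL44, and MRPL48 lies at the upper left.

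Other genes of mitochondrial translation were set beside the members, from lists chosen for their roles. Of all genes tested, 20.1% rose and 29.2% fell in level with DMSO at 8 h. Of the 6 ribosomal proteins with other names, MRPL57 rose with DMSO at 8 h, to 398 ± 42 CPM against 198 ± 43.2 CPM at 0 h (log2 difference 1.02 ± 0.19, adjusted p = 1.19e-04), and none fell, while with CPM as deposited none was called. Of 25 ribosome assembly factors, 1 rose and 13 fell at 8 h, with a median log2 difference of -1.03. DHX30, an RNA helicase that associates with the ribosome and its assembly factors, fell to 20.7 ± 2.03 CPM with DMSO at 8 h, against 111 ± 17.2 CPM at 0 h (log2 difference -2.36 ± 0.26, adjusted p = 1.1e-07), and DDX28, another helicase, to 0.438 ± 0.465 CPM, near no reads, against 24.3 ± 1.72 CPM (adjusted p = 2.28e-07). NGRN, needed for the large ribosomal RNA, was the one that rose, to 477 ± 29.9 CPM, against 169.9 ± 23.6 CPM (log2 difference 1.49 ± 0.22, adjusted p = 5.02e-06). The split of this list was 1 and 15 with CPM as deposited, 1 and 13 with RLE factors and 1 and 11 of 24 with the GC trend removed. Over all genes tested it was 432 and 4906, 2113 and 3477, and 3324 and 2616 in the same order. With the compounds at 8 h, 1 assembly factor was higher and 1 lower with each, the same genes both times, in comparisons that share the DMSO libraries. Of all genes tested, 1.25% were higher and 0.527% lower with KB742, and 1.94% and 0.921% with KI-ARv-03. DHX30 was at 50.8 ± 12.2 CPM with KB742, 49.7 ± 9.14 CPM for KI-ARv-03 and 20.7 ± 2.03 CPM for DMSO (adjusted p = 0.0107 and 0.00994). MRM2, which methylates the large ribosomal RNA, was at 21.9 ± 5.76 CPM with KB742, 20.6 ± 5.59 CPM for KI-ARv-03 and 71.9 ± 13.3 CPM for DMSO (adjusted p = 5.21e-04 and 2.12e-04).

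Of 14 translation factors and RNA-binding partners tested, 4 rose and 2 fell with DMSO at 8 h, among them SLIRP, which stabilises mitochondrial messengers (log2 difference 1.52 ± 0.26, adjusted p = 4.49e-05), MTRFR, a release factor homologue (log2 difference -2.72 ± 0.58, adjusted p = 4.1e-04), and MRRF, the recycling factor (log2 difference 1.03 ± 0.28, adjusted p = 0.00388). Of 20 aminoacyl-tRNA synthetases and amidotransferase subunits, 6 rose and 4 fell, with MARS2 (log2 difference -3.55 ± 0.47, adjusted p = 1.44e-06) and PARS2 (log2 difference -3.06 ± 0.44, adjusted p = 4.88e-06) falling. Of 5 genes of mitochondrial transcription none rose and 1 fell. These counts stand beside 20.1% of all genes tested that rose and 29.2% that fell. With CPM as deposited the splits of the 3 lists were 0 and 3, 2 and 8, and 0 and 3, where 432 of the 11395 genes tested rose and 4906 fell. In conversion, where 42.5% of all genes tested rose and 0.031% fell with DMSO at 8 h, 4 of 11 factors, 3 of 15 synthetase genes, 4 of 14 assembly factors and 5 of 6 ribosomal proteins with other names rose with DMSO at 8 h, and none fell. MRM2 was at 9.84% ± 2.97 with KB742, 11.1% ± 5.81 for KI-ARv-03 and 25.8% ± 5.68 for DMSO at 8 h, and GATC, an amidotransferase subunit, at 1.68% ± 0.30, 1.6% ± 0.40 and 8.14% ± 1.04 in the same order (adjusted p of MRM2 3.09e-04 and 5.56e-04, of GATC 1.19e-06 and 6.87e-07). Of 81 genes of the cytosolic ribosome tested, 71 rose and 1 fell with DMSO at 8 h (25 and 1 with CPM as deposited), with a median log2 difference of 1.64, against 0.32 for the members. Their conversion rose in 30 of 76, with a median difference of 0.123 percentage points, against 0.982 points for the members and 0.623 points for all genes tested. With the compounds at 8 h it fell in 22 of 74 with KB742, against 33.9% of all genes tested, and in 24 of 75 with KI-ARv-03, against 36.5%. The difference between the cytosolic and the mitochondrial set was not tested.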

How the data were processed

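The libraries were 3′-end SLAM-seq of 22Rv1 cells. Per the file headers, the authors deposited a CPM and a conversion value for each RefSeq transcript and library; build hg19 is named in the submitters' processing notes, and the sources used here do not give the aligner or counter. The deposited CPM columns do not sum to a common total and are treated as a signal proportional to reads, since 100% of values were whole multiples (within 0.05) of what 1 read is worth. The deposited conversion is a fraction of T read as C per transcript, with no numerator, so its precision was judged from reads (at least 20, otherwise missing). Names came from the table or RefSeq (99.2% of IDs matched), and 0.478% of reads lay in rows without a symbol.

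Levels were tested with limma 3.58.1 (R 4.3.3) on log2(CPM + 1) of recovered reads rescaled with edgeR 4.0.16 TMM factors, after a minimum count of 10, with all 30 libraries in 1 fit, and conversion with limma on arcsine square roots. A fold on this scale understates the change of low genes. Benjamini-Hochberg adjustment ran over all genes tested, at a threshold of 0.05. The unit differs from raw counts, so edgeR's quasi-likelihood test on recovered reads was an alternative, beside other scalings, a pseudocount of 0.25, no filter, the compared groups alone, a replicate block, libraries left out, at least 50 reads, a log2 scale for conversion, the GC trend removed and weighting by reads. The last 2 and leaving out the 3 libraries that stand apart were added after seeing the data. Tests were tried on simulated data, where the unweighted conversion test made more false calls than its threshold allows, and fewer when weighted by reads. Simulated reads were converted or not as a whole, unlike the deposited fraction of T. GC content was found for 95.9% of genes tested. Figures were drawn with matplotlib 3.10.9, and tables made with pandas 2.3.3 and numpy 2.4.6 in Python 3.11.15.

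The members and lists were chosen with earlier results of these data known. Some genes of the lists are counted in them but not reported here by name. Named are the 6 highest and 4 lowest members, up to 6 (level) or 4 (conversion) called members of smallest adjusted p per direction and comparison, otherwise the 2 of smallest p, members of special role, and up to 3 genes per other list. MRPL28 and the members beside it in the account of base composition were chosen after their values were seen.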

Additional observations from a re-analysis of the deposited data

How the results depend on the processing

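Of 70 results for single genes under the alternatives, none changed direction, while 65 recomputed values lost the call, 7 gained one and 903 did neither. The falls of MRPL44, MRPL46 and MRPS30 at 4 and 8 h with DMSO kept their calls under every alternative run. For level at 4 h with DMSO the 10 calls became 7 with RLE factors, 4 with CPM as deposited and 23 with the GC trend removed, where the balance of rises and falls turned with the first 2 and without 0 h replicate 3 or DMSO 4 h replicate 3. With CPM as deposited the 30 calls at 8 h became 25, mostly falls, where 432 of all genes tested rose and 4906 fell. KB742 at 8 h gave 0 calls in level with the compared groups alone and 2 with the GC trend removed, against 1. KI-ARv-03 at 8 h gave 1 with RLE factors, 1 with a pseudocount of 0.25, 2 without the 3 libraries that stand apart and 1 with the GC trend removed, against 0. For conversion with KB742 at 4 h the 12 calls became 6 on the log2 scale, 20 with the compared groups alone, 24 without the 3 libraries and 19 weighted by reads. With KI-ARv-03 the 8 at 4 h became 1, 5, 25 and 5 under the same changes, and at 2 h 1 appeared without the 3 libraries. The causes were not tested. With single libraries left out, counts ranged over 4 to 10 (level, DMSO 4 h), 0 to 1 (level, KB742 8 h), 0 to 2 (level, KI-ARv-03 8 h), 1 to 7 (conversion, DMSO 2 h), 26 to 42 (DMSO 4 h), 7 to 13 (KB742 4 h), 21 to 39 (KB742 8 h) and 3 to 22 (KI-ARv-03 4 h). With the replicate block, 11 and 30 members were called in level at 4 and 8 h with DMSO, and 6, 44 and 52 in conversion at 2, 4 and 8 h; it changed no call of a named gene. Correlations of deviations between same-numbered libraries ran from -0.36 to 0.45, with 7 of 27 over 0.1. With 3 libraries per group they cannot tell whether same-numbered libraries share a culture or a batch. Depth limits conversion of members under about 20 reads, and small conversion values rest on few converted reads.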
